A study of Homo sapiens with 6 samples.

Results

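The 41 genes described here build and supervise the protein-folding compartment of the secretory pathway, the endoplasmic reticulum (ER). They were chosen by symbol, and all 41 were found once each among the 60649 genes of the count table. They were measured by RNA sequencing in 786-O, an established cell line from a human clear cell kidney cancer. LINC02068, a long non-coding RNA, was targeted with 2 hairpins (groups shRNA1 and shRNA2, genotype LINC02068 knockdown), and a control hairpin gave the group shControl (genotype WT), each with 2 libraries. All groups were grown in RPMI-1640 with fetal bovine serum and received no further treatment. The labels do not say how hairpins were delivered, whether cells were pools or clones, or whether the replicates of a group were cultured apart. The p-values therefore measure the spread between these libraries, which may be technical. Of the 41 genes, 40 passed the filter on low counts and were tested with edgeR's quasi-likelihood F test, in a fit to all 16039 genes that passed. "Called" below means a Benjamini-Hochberg adjusted p under 0.05 in that test, and errors of log2 fold changes are standard errors.

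Secreted and membrane proteins enter the ER through the SEC61 channel, where the signal peptidase cuts off their signal sequence and the oligosaccharyltransferase attaches sugar chains. Chaperones such as BiP (HSPA5), the lectins calnexin and calreticulin, and the protein disulfide isomerases then fold them. Chains that fail to fold are pulled back to the cytosol and destroyed, which is called ER-associated degradation. When unfolded chains build up, sensors in the ER membrane, among them IRE1 (ERN1), ATF6 and PERK (EIF2AK3), start the unfolded protein response, in which spliced XBP1 and cleaved ATF6 bind ER stress response elements in the promoters of chaperone genes. The PERK branch works through ATF4, which also answers amino acid shortage.

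The promoters of some of these genes carry a sequence element known from ER chaperone genes, so its presence among the members is not an independent finding. RefSeq promoter windows of 300 bases on GRCh38.p14 were found for 35 of the 41 genes. No window was found for PDIA3, DERL1, DERL3, SPCS1, RPN1 and STT3B. The ER stress response element (ERSE, which is CCAAT, 9 free bases and CCACG) and its shorter form ERSE-II (ATTGG, 1 free base and CCACG) were searched on both strands. ERSE was present in 7 of the 35 genes, against 25 (0.092%) of all 27305 genes with a window, and ERSE-II in 3 of the 35, against 19 (0.07%). The counts over all genes include the members. The matches are shown in the direction of the motif because they allow the element to be set beside the direction in which each gene moved. Capitals mark the fixed bases.
HSPA5: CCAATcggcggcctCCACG
HSP90B1, distal: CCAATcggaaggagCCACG
HSP90B1, proximal: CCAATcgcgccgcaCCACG
CALR: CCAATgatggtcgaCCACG
CANX: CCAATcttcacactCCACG
PDIA6: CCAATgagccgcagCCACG
XBP1: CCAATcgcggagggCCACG
CRELD2: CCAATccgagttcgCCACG
HYOU1, both sites: ATTGGaCCACG
SDF2L1: ATTGGtCCACG
HERPUD1: ATTGGgCCACG

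The HSPA5 and HSP90B1 promoters are printed whole up to the annotated start, since both hold the full ERSE and the genes moved in opposite directions. ERSE matches are in capitals. The HSPA5 stretch lies at chr9:125241344-125241593 on the minus strand, and its match ends 48 bases before the start. The HSP90B1 stretch lies at chr12:103930160-103930409 on the plus strand, and its second match, on the opposite strand, ends 71 bases before the start.
HSPA5: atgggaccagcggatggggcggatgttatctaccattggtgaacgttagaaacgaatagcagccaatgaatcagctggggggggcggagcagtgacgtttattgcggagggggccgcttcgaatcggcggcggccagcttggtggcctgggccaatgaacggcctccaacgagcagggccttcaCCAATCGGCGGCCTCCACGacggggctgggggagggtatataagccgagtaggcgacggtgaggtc
HSP90B1: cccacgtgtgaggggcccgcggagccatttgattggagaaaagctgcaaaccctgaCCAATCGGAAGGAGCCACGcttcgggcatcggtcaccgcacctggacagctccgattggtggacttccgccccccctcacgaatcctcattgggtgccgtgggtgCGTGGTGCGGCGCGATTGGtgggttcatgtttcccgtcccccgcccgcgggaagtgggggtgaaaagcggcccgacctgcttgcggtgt

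Total counts were 15376448 and 19838400 with shRNA1, 37311846 and 21803883 with shRNA2 and 17266828 and 26277068 with shControl, and levels are given in CPM, the count of a gene relative to the TMM-scaled total of its library, where 1 CPM equals 14.9 to 36.0 counts. LINC02068, the targeted gene, had 20 and 32 counts with shControl, 9 and 2 with shRNA1 and 17 and 10 with shRNA2. It was lower for the mean of both hairpins (log2 fold change −1.46 ± 0.59, edgeR adjusted p = 0.0447), but with neither hairpin alone (0.0690 and 0.148). That call was lost without shRNA1 replicate 2 (−1.02, 0.124), either shRNA2 library (−1.45, 0.0986, and −1.46, 0.0972) or either shControl library (−1.50, 0.160, and −1.41, 0.219). The second principal component (15.1% of the variance) separated shRNA1 replicate 1, with a score of 50.4 where the remaining libraries scored −23.0 to 4.99. Without that library the median log2 change of the members was 0.128 for the hairpin mean, against 0.132 with all libraries. The renal markers PAX8 and PAX2 were present (307 and 24.0 CPM in shControl), while the carcinoma marker NDUFA4L2 was near the detection limit at 0.625 CPM. The leukocyte genes PTPRC and CD3E, the endothelial gene CDH5 and the fibroblast genes COL1A2 and DCN had no counts in any library. Summed CPM of the 10 renal carcinoma markers (9 tested) was 8726.5 to 8852 in the knockdown libraries and 7168 to 7179 in the controls. Most of that sum was vimentin (VIM, 5146.5 CPM in shControl). Single markers were called in both directions, such as PAX2 higher (0.56 ± 0.079) and LOX lower (−1.41 ± 0.087). The macrophage-linked gene CD68 was at 36.9 to 44.0 CPM and 35.8 to 39.6 CPM. The 3 endothelial markers summed to 0.269 to 0.889 and 0.215 to 0.392, and the 4 fibroblast markers to 6.70 to 7.79 and 8.03 to 8.05. Any part of these markers in the results was not tested.

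For the mean of both hairpins ER genes were called in both directions, also within the chaperones, the degradation genes, the translocon and the oligosaccharyltransferase. In the remaining roles calls went in a single direction. Calreticulin, BiP and the small ER stress proteins SDF2L1, CRELD2 and MANF rose. So did the SEC61 channel, most of its partner subunits and the signal peptidase subunits SPCS2 and SPCS3. The IRE1 sensor, its substrate XBP1, the chaperone GRP94 (HSP90B1) and the mannosidase-like EDEM1 and EDEM2 fell. For the mean of both hairpins 23 of the 40 tested members were called higher and 11 lower, against 28.6% and 28.9% of all tested genes (57.5% in either direction). The median log2 change of the members was 0.13, and that of all tested genes −0.025. Higher calls over 1 log2 unit were SDF2L1, CRELD2 and SEC61B (3 of 40, background 4.61%) and the only such lower call was ERN1 (1 of 40, background 8.09%). A test against a fold of 1.2 called 16 members higher and 8 lower (background 19.3% and 20.2%). Total counts without TMM factors lowered the median of all genes by 0.155, and with it 18 members were higher and 16 lower (median −0.02), while the share of higher genes among all called genes went from 49.7% to 36.0%. With no filter on low counts 19 were higher and 11 lower, and 47% of all called genes were higher. Removing a trend on exon length and GC content left 24 higher and 9 lower (median 0.24). That removal also raised the median of all genes to 0.055 and the higher share of all called genes to 57.1%. Values below rest on TMM scaling, in which the level of a gene is relative to the other genes of the library. RNA per cell was not measured, so fewer cells with a transcript and less of it per cell cannot be told apart.

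Each hairpin alone gave similar counts. With shRNA1, 23 members were higher and 10 lower (background 26.8% and 25.6%, or 52.4% in either direction), and with shRNA2 23 and 11 (background 26.7% and 26.1%, or 52.8% in either direction). Both comparisons use the same 2 control libraries and are not independent. With both hairpins each tested alone, 21 members were higher and 10 lower (background 24.4% and 22.4%). All 4 knockdown libraries lay above both control libraries for 25 members (background 32.7%) and below them for 13 (background 34.2%). The remaining pair, HYOU1 and P4HB, overlapped. Between the hairpins edgeR called 0 of the 40 members (background 0.0312%, of which 0.00623% higher and 0.0249% lower with shRNA1), with 1 at an unadjusted p under 0.05, and DESeq2 called 0. Differences between the hairpins ran from −0.08 to 0.24 on the log2 scale.

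**Figure D1:**
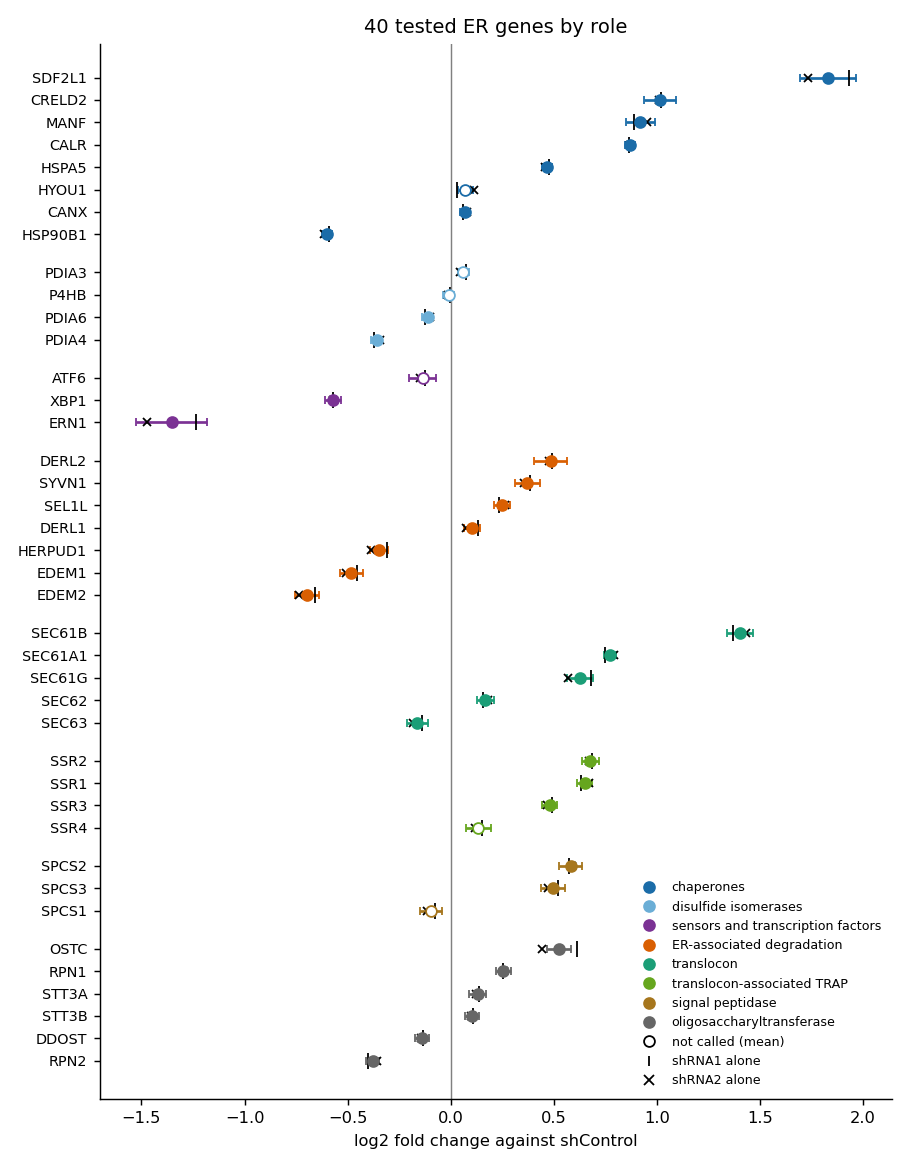
Log2 fold change against shControl (x axis) of the 40 tested ER genes, grouped and coloured by role. Circles show the mean of both hairpins with its standard error, open where not called, and ticks and crosses show each hairpin alone. SDF2L1 (1.83) and SEC61B (1.40) lie farthest right and ERN1 (−1.35) farthest left. The small values of CANX, HYOU1, PDIA3, DERL1, SSR4, STT3A and STT3B change sign under total counts, and those of ATF6, SEC63 and SPCS1 after length and GC correction.

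Among the chaperones, 6 of 8 genes were called higher, 1 lower and 1 was not called (5 higher and 2 lower under total counts). Of all tested genes 28.6% were higher and 28.9% lower, and no role was tested against these shares. Under total counts 36% of all called genes were higher, against 49.7% with TMM. HSPA5 encodes BiP, the HSP70 of the ER and the main brake on the stress sensors. It stood at 1166 and 1150.4 CPM with shControl, 1637 and 1589.7 with shRNA1, and 1596 and 1586 with shRNA2. All knockdown libraries lay above both controls (0.47 ± 0.025, edgeR adjusted p = 3.4e-10). CALR encodes calreticulin, a soluble lectin chaperone that binds calcium (GRCh38 chromosome 19, 12938578 to 12944489, plus strand). Its level was 1197 and 1213 CPM in the controls, 2185.5 and 2209 with shRNA1 and 2172 and 2233 with shRNA2 (0.87 ± 0.025, adjusted p = 3.3e-13). Groups did not overlap, and the spread within each was small beside the step between them.

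HSP90B1 encodes GRP94, the HSP90 of the ER, which folds integrins and Toll-like receptors. It was at 1065 and 1046 CPM with shControl, 707 and 697 with shRNA1 and 694 and 686 with shRNA2. The gene was thus lower in every knockdown library (−0.60 ± 0.025, edgeR adjusted p = 2.0e-11), opposite to HSPA5. The exons of HSP90B1 overlap MIR3652 on the same strand by 131 bases and those of C12orf73 and TTC41P on the other strand by 121 and 105 bases, and the strand setting of the counting is not given in the sources used here.

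SDF2L1, CRELD2 and MANF rose from lower levels. SDF2L1, a BiP cofactor, had 5.79 and 4.57 CPM with shControl, 21.0 and 18.3 with shRNA1 and 17.7 and 16.4 with shRNA2 (1.83 ± 0.14, edgeR adjusted p = 1.4e-08). CRELD2, an ER stress-inducible protein that is also secreted, had 22.0 and 22.1 CPM with shControl and between 41.5 and 47.6 in the knockdown libraries (1.015 ± 0.079, adjusted p = 2.3e-08). MANF, a secreted neurotrophic factor that stabilises BiP, had 26.1 and 28.96 CPM in the controls and between 49.3 and 54.1 with the hairpins (0.92 ± 0.072, adjusted p = 2.4e-08). In none of these did a knockdown library reach down to a control library, which also held for 32.7% of all tested genes.

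The membrane lectin calnexin and the BiP exchange factor HYOU1 had small changes. CANX was at 688 and 689 CPM in the controls and 717 to 729 with the hairpins, a call by a small margin (0.07 ± 0.026, edgeR adjusted p = 0.0303). It was lost without either shRNA2 library (0.0613 and 0.0631) or either shControl library (0.176 and 0.152), with no filter on low counts (0.397) and with a stricter filter (0.104), and CANX was −0.09 under total counts. HYOU1 was at 249 and 236 CPM in the controls, 247 and 249 with shRNA1 and 252 and 272 with shRNA2 (0.07 ± 0.038, adjusted p = 0.119). Its groups overlapped. It was called higher with shRNA2 alone (0.11, 0.0431) and without shRNA2 replicate 1 (0.09, 0.0428), and was −0.08 under total counts.

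**Figure D2:**
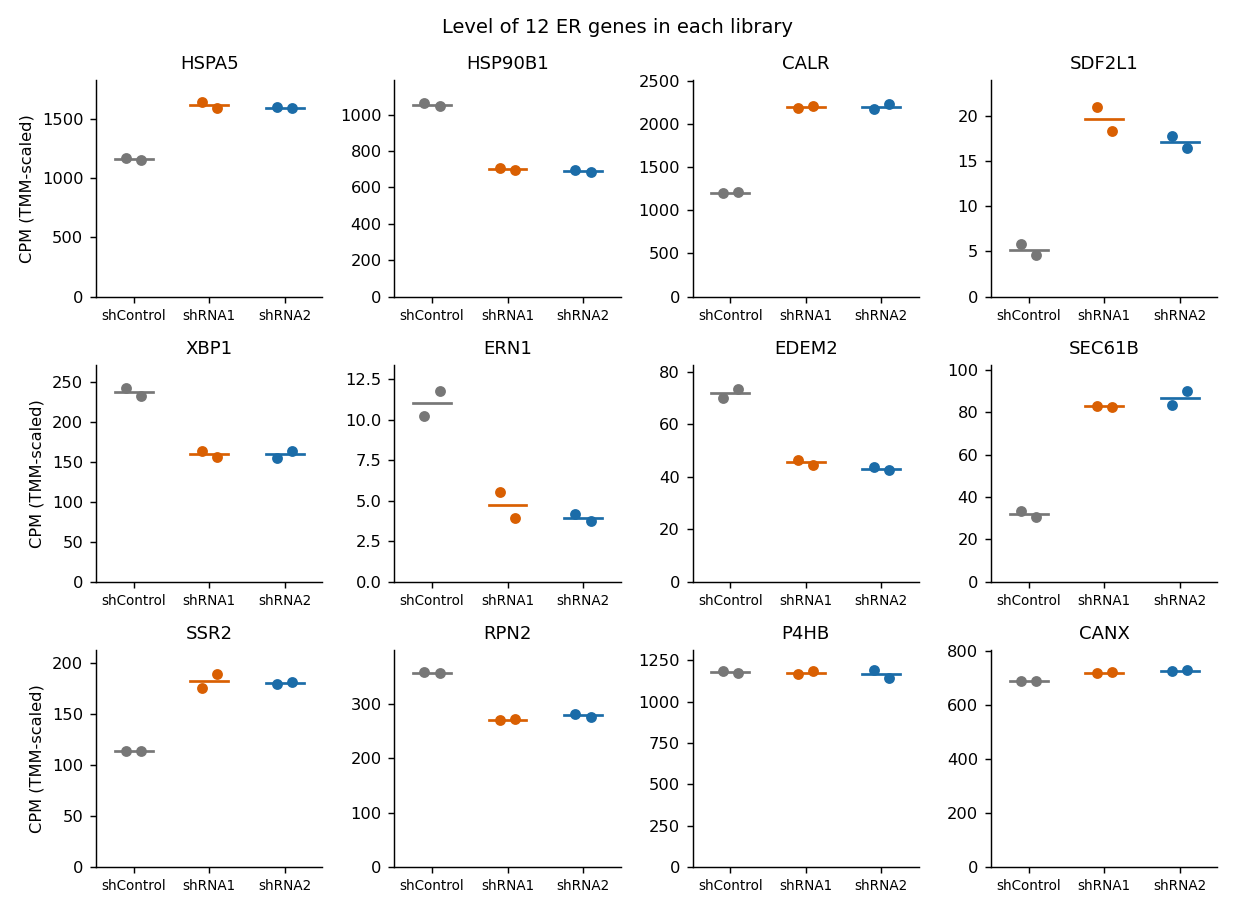
TMM-scaled CPM (y axis, from 0) of 12 ER genes in each library; points are libraries and bars the mean of the 2 libraries of a group. HSPA5, CALR, SDF2L1, SEC61B and SSR2 lie higher in all 4 knockdown libraries, HSP90B1, XBP1, ERN1, EDEM2 and RPN2 lower, and P4HB overlaps. CANX moved little, and its sign depends on the scaling.

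Of the 4 disulfide isomerases, which form and reshuffle disulfide bonds, 2 were called lower and 2 were not called (all tested genes 28.9% lower). PDIA4 stood at 619 and 626 CPM with shControl, 487 and 474 with shRNA1 and 493 and 490 with shRNA2 (−0.36 ± 0.027, edgeR adjusted p = 1.8e-08). All knockdown libraries were lower. PDIA6, which also acts on the IRE1 sensor, was lower by less, from 540 and 549 CPM to between 500.3 and 512 (−0.11 ± 0.027, adjusted p = 0.00252), and the call was lost after length and GC correction (−0.02, 0.553). P4HB, the founding isomerase and a subunit of collagen prolyl hydroxylase, was at 1184 and 1177 CPM in the controls and 1147 to 1192 with the hairpins (−0.01 ± 0.026, adjusted p = 0.776). Its sign turned without shRNA1 replicate 1 (0.01) or 2 (0.00), and it was called lower under total counts (−0.17). PDIA3, the partner of calnexin and calreticulin, was at 696 and 689 CPM in the controls and 711 to 732 with the hairpins. All knockdown libraries were higher, but it was not called (0.06 ± 0.026, adjusted p = 0.0525). PDIA3 was called higher with shRNA1 alone (0.08, 0.0425), with the replicate block (0.0321), in DESeq2 (0.0321), with RLE factors (0.0412) and after length and GC correction (0.17, 2.3e-05). It was also called higher without shRNA1 replicate 1 (0.0347) or replicate 2 (0.0332), and lower under total counts (−0.09, 0.00401).

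Of the sensors and transcription factors, 2 of 3 fell (all tested genes 28.9% lower). ERN1 encodes IRE1, a kinase and nuclease that splices XBP1 mRNA (chromosome 17, 64039142 to 64130819, minus strand). Its level was 10.2 and 11.8 CPM with shControl, 5.51 and 3.92 with shRNA1 and 4.17 and 3.73 with shRNA2 (−1.35 ± 0.17, edgeR adjusted p = 6.5e-06). No knockdown library reached the lower control. XBP1 was at 242 and 232 CPM with shControl, 163 and 156 with shRNA1 and 155 and 164 with shRNA2 (−0.57 ± 0.038, adjusted p = 3.6e-09). Counts per gene do not separate spliced from unspliced XBP1. ATF6, the membrane-bound transcription factor, was at 63.4 and 62.3 CPM in the controls and 53.5 to 60.8 with the hairpins, and was not called (−0.14 ± 0.065, adjusted p = 0.0887). It was called lower without shRNA2 replicate 2 (−0.18, 0.0269), with a stricter filter (−0.16, 0.0445) and under total counts (−0.29, 0.00131), and stood at 0.01 after length and GC correction.

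ER-associated degradation split into 4 genes higher and 3 lower, with a median of 0.10 (all tested genes 28.6% higher and 28.9% lower). Of the mannosidase-like proteins, which mark misfolded glycoproteins for removal, EDEM1 and EDEM2 were lower. EDEM3, from the further degradation genes and named after its value was seen, was not called (0.12 ± 0.077, edgeR adjusted p = 0.202). EDEM2 went from 70.2 and 73.7 CPM to 46.4 and 44.7 with shRNA1 and 43.6 and 42.8 with shRNA2 (−0.70 ± 0.057, edgeR adjusted p = 4.3e-08). EDEM1 went from 73.4 and 74.0 CPM to between 50.6 and 54.1 (−0.48 ± 0.055, adjusted p = 1.8e-06). HERPUD1, a stress-inducible organiser of the degradation complex, went from 112 and 117 CPM to between 86.5 and 94.0 (−0.35 ± 0.045, adjusted p = 7.4e-06). In EDEM1, EDEM2 and HERPUD1 all knockdown libraries lay below both controls, as was so for 34.2% of all tested genes.

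The ubiquitin ligase SYVN1 (HRD1) and its partner SEL1L, the core of the degradation channel, were higher. SEL1L went from 134 and 129 CPM to between 152 and 159 (0.25 ± 0.039, edgeR adjusted p = 5.4e-05). SYVN1 went from 48.2 and 50.4 CPM to between 61.4 and 67.5 (0.37 ± 0.061, adjusted p = 8.2e-05), but its exons overlap 398 bases of FAU, a ribosomal protein gene, on the same strand. DERL2, a derlin of the same channel, rose from 34.3 and 33.3 CPM to between 43.0 and 52.1 (0.485 ± 0.081, adjusted p = 9.7e-05). DERL1 was called higher by a small margin (0.10 ± 0.038, adjusted p = 0.0296). The call was lost without either shRNA2 library (0.0511 and 0.0829) or either shControl library (0.172 and 0.123), in DESeq2 (0.0722), and with no filter (0.228) or a stricter one (0.0684), and DERL1 was −0.05 under total counts. DERL3, the derlin of secretory cells, had 1 to 4 counts per library and was not tested.

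The translocon genes gave 4 higher and 1 lower, with a median of 0.63 (all tested genes 28.6% higher and 28.9% lower). SEC61B, the beta subunit of the channel (chromosome 9, 99222064 to 99230615, plus strand), had 33.5 and 30.7 CPM with shControl, 83.0 and 82.6 with shRNA1 and 83.3 and 90.04 with shRNA2 (1.40 ± 0.063, edgeR adjusted p = 4.6e-11). SEC61A1, the pore itself, was at 339 and 348 CPM in the controls, 586 and 571 with shRNA1 and 587 and 605 with shRNA2 (0.77 ± 0.030, adjusted p = 7.4e-12). SEC61G, the gamma subunit, went from 45.6 and 51.8 CPM to between 71.2 and 79.4 (0.63 ± 0.063, adjusted p = 4.2e-07). All channel subunits were thus higher in each knockdown library than in both controls, as were 32.7% of all tested genes.

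SEC62 and SEC63, which help short and slow substrates through the channel together with BiP, moved little and apart. SEC62 was at 112 and 119 CPM in the controls and 127 to 131 with the hairpins (0.17 ± 0.042, edgeR adjusted p = 0.00293). Without shControl replicate 1 it was no longer called (0.12, 0.0860), nor under total counts (0.01, 0.783). SEC63 was at 94.5 and 90.9 CPM in the controls and 80.1 to 86.7 with the hairpins (−0.16 ± 0.050, adjusted p = 0.0119). Its call was lost without shRNA1 replicate 1 (−0.12, 0.0609) or shControl replicate 1 (−0.14, 0.103), and it was 0.01 after length and GC correction.

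The translocon-associated protein complex, TRAP, sits beside the channel and aids difficult signal sequences. Of its 4 subunits 3 were called higher and 1 was not called (all tested genes 28.6% higher). SSR1 went from 149 and 157 CPM with shControl to 242 and 233 with shRNA1 and 246 and 242 with shRNA2 (0.65 ± 0.036, edgeR adjusted p = 4.6e-10). SSR2 went from 114 and 114 CPM to between 176 and 190 (189.9 in shRNA1 replicate 2; 0.68 ± 0.041, adjusted p = 1.4e-09). SSR3 went from 175 and 174 CPM to between 238 and 254 (0.48 ± 0.036, adjusted p = 1.3e-08). SSR4 was at 71.2 and 73.2 CPM in the controls and 73.8 to 83.5 with the hairpins and was not called (0.13 ± 0.060, adjusted p = 0.0711). It was called without shRNA1 replicate 2 (0.0300) or shRNA2 replicate 1 (0.0244), and was −0.02 under total counts.

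In the signal peptidase, the subunits among the members differed. SPCS2 went from 59.8 and 55.0 CPM to between 83.0 and 88.03 (0.58 ± 0.057, edgeR adjusted p = 3.5e-07), and SPCS3 from 56.4 and 64.3 CPM to between 83.2 and 86.8 (0.50 ± 0.059, adjusted p = 3.2e-06). SPCS1 was at 69.6 and 71.6 CPM in the controls and 64.5 to 69.1 with the hairpins (−0.10 ± 0.055, adjusted p = 0.149). It was called lower under total counts (−0.25, 9.2e-04) and was 0.01 after length and GC correction. Exons of NEK4 overlap SPCS1 on the other strand by 2698 bases.

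The oligosaccharyltransferase, which transfers the glycan to asparagine, moved in both directions. It had 4 genes higher and 2 lower and a median of 0.12 (2 and 2 under total counts). Among all tested genes 28.6% were higher and 28.9% lower, and under total counts 36% of all called genes were higher. OSTC, a subunit of the form that works beside the channel, had 59.8 and 62.1 CPM with shControl, 89.9 and 96.4 with shRNA1 and 87.2 and 78.4 with shRNA2 (0.53 ± 0.059, edgeR adjusted p = 1.6e-06). RPN1 went from 328 and 345 CPM to between 387 and 418 (0.26 ± 0.035, adjusted p = 1.5e-05), while RPN2 went from 358.5 and 357 CPM to between 270.03 and 282 (−0.38 ± 0.030, adjusted p = 2.4e-08). DDOST was slightly lower (−0.14 ± 0.032, adjusted p = 0.00176). These ribophorins are subunits of 1 complex, and their groups moved apart without overlap (all tested genes 32.7% above and 34.2% below both controls).

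The alternative catalytic subunits were higher by small margins. STT3A, which glycosylates chains during translocation, had a log2 change of 0.13 ± 0.040 (edgeR adjusted p = 0.0111), and STT3B, which acts on sites that were skipped, 0.10 ± 0.034 (0.0153). STT3A lost its call without shRNA2 replicate 1 (0.0550) or either shControl library (0.116 and 0.0564), and STT3B without shRNA2 replicate 2 (0.0561) or shControl replicate 2 (0.194). With no filter on low counts both lost the call (0.0505 and 0.155). Under total counts both signs turned (−0.02 and −0.05).

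Ratios of members within a library do not depend on how libraries are scaled. Groups were apart for 7 of 9 pairs, picked from members that were chosen with earlier results known. The share over other gene pairs was not computed. Of single tested genes, 32.7% had all knockdown libraries above both controls and 34.2% below. The log2 ratio of HSPA5 to HSP90B1 counts was 0.13 and 0.14 in the controls and 1.19 to 1.21 in the knockdown libraries. For CALR against CANX, the soluble and the membrane lectin, it was 0.80 and 0.82 in the controls and 1.58 to 1.62 in the knockdown libraries. SEC61A1 against SEC61B was 3.34 and 3.50 in the controls and 2.75 to 2.82 in the knockdown libraries. DERL1 against DERL2 went from 1.95 and 2.00 to between 1.49 and 1.75, and PDIA4 against P4HB from −0.94 and −0.91 to between −1.32 and −1.23. STT3A against STT3B was −0.34 and −0.26 in the controls and −0.35 to −0.20 in the knockdown libraries, and SEC61A1 against SEC61G 2.75 and 2.90 against 2.85 to 3.09. For both of these pairs the groups overlapped. These ratios are described without a test.

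**Figure D3:**
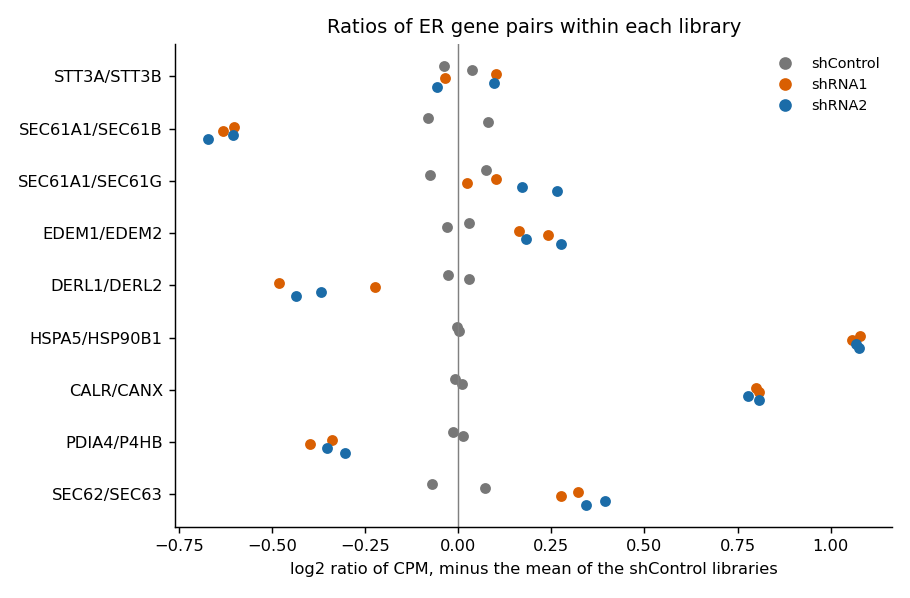
Log2 ratio of CPM for 9 pairs of ER genes within each library, minus the mean of the shControl libraries (x axis); each point is 1 library, coloured by group. HSPA5 against HSP90B1 and CALR against CANX are shifted right in all knockdown libraries, SEC61A1 against SEC61B left, and STT3A against STT3B and SEC61A1 against SEC61G overlap.

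Per length of exon, which allows genes to be compared with each other, the soluble chaperones led. In shControl CALR had 444 CPM per kb, HSPA5 296, HSP90B1 225 and P4HB 223. With the hairpins CALR reached 810 (809.6 with shRNA1) and 812 CPM per kb, HSPA5 413 and 407, while HSP90B1 stood at 149 and 147, below P4HB at 222 and 220.5. SEC61B went from rank 19 of the 41 members to rank 13, and SEC61A1 from rank 13 to rank 7. Lowest were ERN1, at 1.01 CPM per kb with shControl and 0.434 and 0.364 with the hairpins, and DERL3 at 0.0377, 0.0226 and 0.0325. Lengths are unions of all annotated exons in GENCODE 29, which understates genes with long, rarely used exons such as SSR2 (6651 bases). Summed, the 41 members took 1.199 and 1.211% of all counts in the controls and 1.23 to 1.24% with the hairpins. BiP alone made up 10.2 to 10.4% of the members' counts in the controls and 12.4 to 12.8% with the hairpins.

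**Figure D4:**
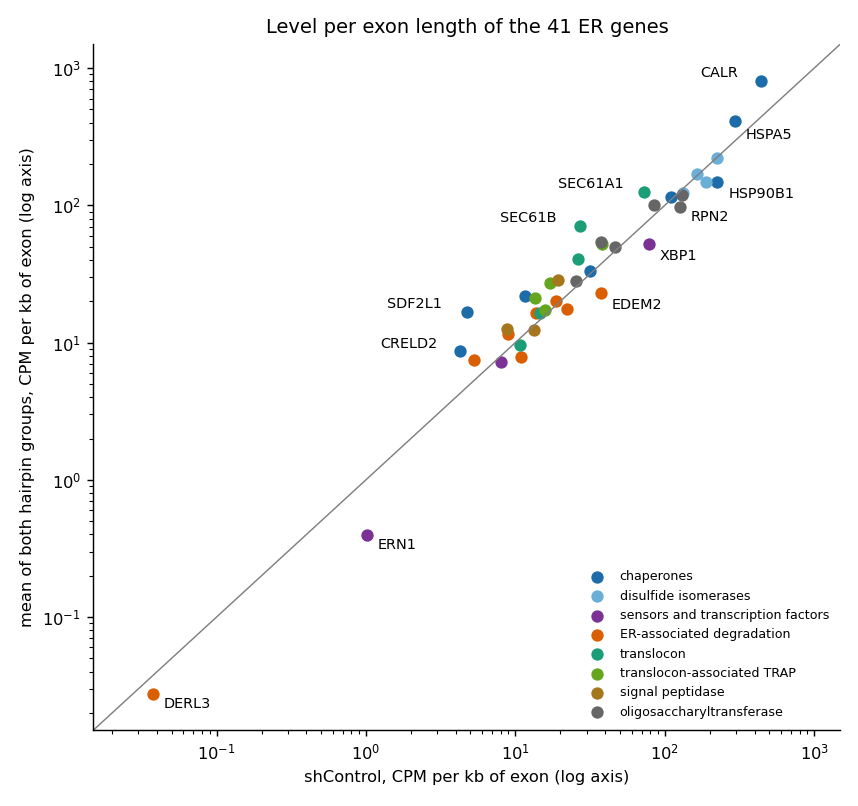
Level per kb of exon in shControl (x axis, log) and in the mean of both hairpin groups (y axis, log) for the 41 ER genes, coloured by role; the line marks equal levels. CALR and HSPA5 lie highest and above the line, HSP90B1, XBP1, EDEM2 and ERN1 below it, and DERL3 stands alone near 0.03 to 0.04 CPM per kb.

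Members with the promoter element moved in both directions. Of the 10 members with ERSE or ERSE-II, 5 were called higher (HSPA5, CALR, CANX, SDF2L1 and CRELD2), 4 lower (HSP90B1, PDIA6, XBP1 and HERPUD1) and HYOU1 was not called, with a median of 0.07 (all tested genes 28.6% higher and 28.9% lower). CANX turned lower under total counts. The 25 members whose window held neither form gave 15 higher, 7 lower and 3 not called, with a median of 0.25. The unfolded protein response element TGACGTGG was present in HYOU1, where it overlaps an ERSE-II match, and in SSR3, SEC62 and SSR4 (4 of 35 genes, against 0.927% of all genes). The amino acid response core TGATGNAA, bound by ATF4 with C/EBP partners, was found in HERPUD1 only (1 of 35, against 4.457%). A match is a description of these letters, and factor binding was not measured.

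Other genes of the same processes were taken from lists drawn up by function, and each count with TMM reads against the 28.6% higher and 28.9% lower of all tested genes. Under total counts 36% of all called genes were higher, against 49.7% with TMM. Among further sensors and regulators of the unfolded protein response, 5 of 17 tested genes were higher, a share near that background, and 8 lower (median −0.09). The transcription factor of the PERK branch, ATF4, went from 405 and 414 CPM to between 199 and 222 (−0.97 ± 0.041, edgeR adjusted p = 2.0e-10). TRIB3, a pseudokinase gene induced by ATF4, went from 545 and 557 CPM to between 135 and 148 (−1.95 ± 0.034, adjusted p = 1.3e-15). PPP1R15A, the phosphatase subunit that reverses PERK's mark on eIF2, fell (−0.835 ± 0.032), and WFS1, an ER calcium regulator, rose (0.97 ± 0.057). Chosen after their values were seen, the PERK gene EIF2AK3 rose (0.565 ± 0.10, adjusted p = 1.9e-04) and DDIT3, which encodes the death-linked factor CHOP, fell (−1.80 ± 0.11, adjusted p = 1.1e-09).

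Further chaperones and cofactors gave 11 higher and 6 lower of 19 tested (median 0.16). DNAJB9, a BiP cofactor induced by spliced XBP1, went from 22.9 and 24.2 CPM to between 9.57 and 11.3 (−1.165 ± 0.11, edgeR adjusted p = 1.4e-07). The remaining DNAJ genes of this list, named after their values were seen, went both ways. DNAJB11 (0.52 ± 0.056), DNAJC3 (0.43 ± 0.074) and DNAJC10 (0.23 ± 0.073) were called higher and DNAJC1 (−0.86 ± 0.094) lower. The cargo receptor LMAN1 fell too (−0.75 ± 0.035), while the collagen chaperone SERPINH1 (0.31 ± 0.029) and SDF2, a relative of SDF2L1 (0.83 ± 0.083), rose. Oxidoreductases and prolyl isomerases gave 7 higher and 13 lower of 24 (median −0.20), or 4 and 14 under total counts. TXNDC12 went from 82.0 and 89.2 CPM to between 20.6 and 22.3 (−1.99 ± 0.067, adjusted p = 1.5e-12), TMX3 fell by 1.01 and TXNDC5 by 0.40, and the collagen-folding isomerase PPIB rose by 0.60.

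Of 32 targeting and insertion genes, 20 were higher and 3 lower (median 0.19). The signal recognition particle subunit SRP14 went from 114 and 124 CPM to between 242 and 253 (1.06 ± 0.041, edgeR adjusted p = 7.4e-12). SRP68 (0.70 ± 0.049), the SRP receptor SRPRA (0.84 ± 0.047) and the tail-anchor ATPase GET3 (0.98 ± 0.050) rose as well. Under total counts this list gave 13 higher and 7 lower. Further N-glycosylation genes gave 13 higher and 7 lower of 30 (median 0.14), 9 and 9 under total counts (median −0.015), and 18 and 4 after length and GC correction. After that correction 57.1% of all called genes were higher, and under total counts 36%. The oligosaccharyltransferase subunits DAD1 (0.77 ± 0.040) and OST4 (0.75 ± 0.052), the lectin MLEC (0.92 ± 0.033) and dolichol kinase DOLK (1.65 ± 0.10) rose.

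Further degradation genes gave 9 higher and 12 lower of 29 (median −0.03), and the higher share is near the background. The ATPase that pulls substrates out of the membrane was among the higher genes. VCP went from 264 and 261 CPM to between 675 and 689 (1.38 ± 0.029, edgeR adjusted p = 9.9e-15), and its cofactors UFD1 (1.14 ± 0.057) and NPLOC4 (0.78 ± 0.038) rose too. The VCP-recruiting membrane proteins UBXN4 (−0.82 ± 0.064, adjusted p = 2.4e-08) and FAF2 (−0.25 ± 0.052, 6.1e-04), chosen after their values were seen, fell. HM13, the signal peptide peptidase, rose by 0.52 ± 0.032. The lists were chosen with earlier results of these data known, and some of their genes also serve outside the ER.

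**Figure D5:**
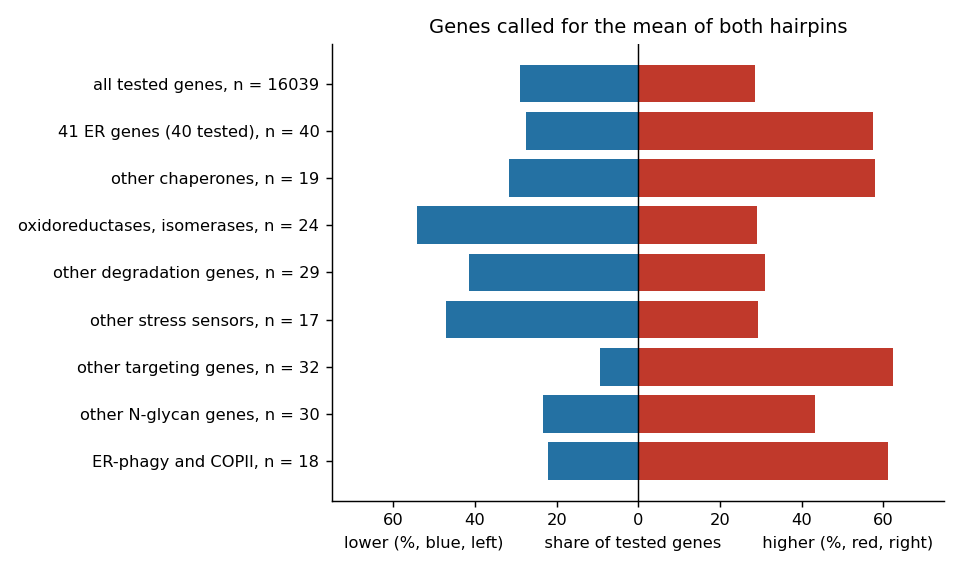
Share of tested genes called higher (red, right) and lower (blue, left) for the mean of both hairpins, in all 16039 tested genes, the 40 tested ER members and 7 further ER lists. Higher calls take 57.5% of the members against 28.6% of all genes, and lower calls 27.5% against 28.9%. Under total counts, not drawn here, the members split 18 to 16 and the targeting list 13 to 7. That is 52.9% and 65% higher among the called, against 36% of all called genes.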

How the data were processed

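The authors deposited raw read counts, 1 whole number per gene and library, for 6 libraries. Per the submitters' processing notes, reads were checked with FastQC 0.11.9, trimmed with Trim Galore 0.6.7 and aligned to hg38 with HISAT2 2.2.1, and StringTie 2.2.1 was used. How reads were counted (tool, annotation release, strand, multi-mapping reads) is not given in the sources used here, so overlapping genes could share reads.

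Genes that passed filterByExpr by group were scaled by TMM and fitted as group means with edgeR 4.0.16 (glmQLFit robust, glmQLFTest, R 4.3.3, limma 3.58.1), all libraries sharing dispersions. Contrasts were the mean of both hairpins, each hairpin against shControl, and shRNA1 against shRNA2. P-values were adjusted by Benjamini-Hochberg over all tested genes. The code was tested on simulated data. Named genes were all members, LINC02068 and up to 4 called genes of each list with the smallest p for the mean of both hairpins, and any called between the hairpins. Members and lists were chosen with earlier results of these data known, and no set test was run. One marker gene is not reported here.

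Exon lengths, GC content and overlaps came from GENCODE 29 (GRCh38), where 96.2% of the gene IDs and all 41 members were found. Promoters came from RefSeq on GRCh38.p14. Alternatives were DESeq2 1.42.0, RLE factors, total counts, a replicate block, no filter, a filter at 10 counts in 2 libraries with mean CPM of at least 1, a glmTreat test against a fold of 1.2, a fit without the group not compared, and each library left out. Removal of a length and GC trend (mgcv 1.9.3) was added after the data were seen. Depth per library is in the report; CPM precision follows from it, and intervals of single counts would cover counting error only.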

Additional observations from a re-analysis of the deposited data

How the results depend on the processing

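Under total counts without TMM factors the median log2 change of the members was −0.023 for the mean of both hairpins, −0.006 for shRNA1 and −0.04 for shRNA2, against 0.13, 0.15 and 0.12 with TMM, and 17 members instead of 10 were lower with shRNA1. For all tested genes the medians were then −0.181, −0.165 and −0.184, and 37.3% of the genes called with shRNA1 were higher (51.2% with TMM). Under total counts CANX was −0.086, HYOU1 −0.084, PDIA3 −0.093, DERL1 −0.051, SSR4 −0.021, STT3A −0.024 and STT3B −0.051. The scaling itself moves all genes one way, so small changes turn sign. With the length and GC trend removed the medians were 0.243, 0.267 and 0.232, and those of all tested genes 0.055, 0.072 and 0.05. ATF6 (0.009), SEC63 (0.011) and SPCS1 (0.008) turned sign, and the cause was not tested. The test against a fold of 1.2 called 15 members higher with shRNA2 instead of 23, as it asks for more than a difference from 0. Of all 16039 tested genes it called 2922 higher with shRNA2 instead of 4279.

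Leaving out each library in turn gave member medians of 0.114 to 0.173 for the mean of both hairpins and 0.118 to 0.166 for shRNA2. The median of all tested genes for the mean of both hairpins ran from −0.049 to −0.017 in these fits. P4HB, near 0, ranged from −0.031 to 0.013, turning sign without shRNA1 replicate 1 (0.013) or 2 (0.003). LINC02068 kept its sign but lost its call under DESeq2 (−1.453, adjusted p = 0.107), the replicate block (−1.524, 0.0506), the test against a fold of 1.2 (−1.457, 0.0698) and the length and GC correction (−1.409, 0.0506), and ranged from −2.26 to −1.02 with libraries left out. The replicate number shared between groups did not pair samples (correlations of deviations −0.029 to 0.0107), and with the replicate block 24 members were higher and 11 lower. With that block 9170 of all 16039 tested genes were called, 49.7% of them higher. The 28 further genes taken from the lists by smallest p kept their direction and call in every alternative that gave the hairpin mean. They were picked as the clearest calls, so this says little about the lists. Genes named after their values were seen were not among them. DERL3 could not be judged at 1 to 4 counts per library.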

Other observations

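In a mixed list of ER-phagy receptors, which mark ER for removal, and COPII coat genes, which package cargo leaving the ER, 18 genes were tested. The mean of both hairpins gave 11 higher and 4 lower (median 0.39, against 28.6% and 28.9% of all tested genes). Under total counts 10 were higher and 6 lower (median 0.23), and 12 and 2 after length and GC correction. Of all called genes 36% and 57.1% were higher in these 2 settings. SAR1A, the GTPase that starts coat assembly, went from 108 and 118 CPM with shControl to 262.5 and 256 with shRNA1 and 267 and 275 with shRNA2 (1.23 ± 0.041, edgeR adjusted p = 1.5e-12). No knockdown library reached down to a control. The coat genes SEC31A (0.77 ± 0.032), SEC24C (0.83 ± 0.036) and SEC16A (0.86 ± 0.040) rose as well. CCPG1, an ER-phagy receptor chosen after its value was seen, fell (−0.85 ± 0.087, edgeR adjusted p = 5.8e-07).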
